A study of Homo sapiens with 6 samples.

Results

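Epithelial cells are held together by junctions that seal and anchor their lateral membranes, and 10 genes of these structures were examined in MDA-MB-231 shBry and MDA-MB-231 shNC cells. They were chosen by name, as the rows of the deposited count table for 3 claudins (CLDN1, CLDN4 and CLDN7), occludin (OCLN), the tight junction scaffold TJP1, 3 desmosome genes (DSP, DSC2 and JUP) and 2 surface glycoproteins (EPCAM and CD24), and all 10 were present among the 54259 rows. MDA-MB-231, an established line from a human breast cancer, was used throughout, and shBry cells carry a short hairpin RNA against brachyury while shNC cells carry a control hairpin, with 3 libraries each. Both groups are the same line with a hairpin construct and differ, per the labels, in the hairpin alone. Neither the labels nor the paper's text name the hairpin sequence or say whether the cells were 1 clone or separate cultures, so p-values measure the spread between these libraries, which may be technical. The design text calls the RNA pericardial, whereas the sample labels name MDA-MB-231 cells.

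Tight junctions seal the space between neighbouring cells near the apical surface. Claudins form the paracellular barrier or pores, occludin is a further membrane protein of the strand, and zonula occludens proteins such as TJP1 tie both to actin. Desmosomes are spot-like anchors in which desmogleins and desmocollins bridge the cells, plakoglobin (JUP) and plakophilins sit on their tails, and desmoplakin (DSP) links the plaque to keratin filaments. EPCAM is an adhesion molecule of epithelial surfaces and CD24 a small glycosylphosphatidylinositol-anchored mucin-like protein. MDA-MB-231 belongs to the mesenchymal-like lines that are known for low levels of claudins and E-cadherin. The transcription factors ZEB and SNAIL repress such genes through the E-box CAGGTG, and brachyury, a T-box factor, binds sites built from the half-site AGGTGTGA.

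Promoter sequence of the members is shown because they were compared under a hairpin against a T-box factor. RefSeq sequence of GRCh38.p14 was matched for 9 of the 10 members by symbol, and EPCAM had no entry. The 250 bases before the annotated start are printed 5′ to 3′ on the strand of the gene for the 4 members with sequence that passed the test below and for DSP, which carries 2 E-boxes. Capitals mark CAGGTG or its reverse complement CACCTG. The windows lie at chr3:190322447-190322696, minus strand (CLDN1), at chr17:7263214-7263463, minus strand (CLDN7), at chr6:106975628-106975877, minus strand (CD24), at chr17:41786712-41786961, minus strand (JUP) and at chr6:7541421-7541670, plus strand (DSP).
CLDN1: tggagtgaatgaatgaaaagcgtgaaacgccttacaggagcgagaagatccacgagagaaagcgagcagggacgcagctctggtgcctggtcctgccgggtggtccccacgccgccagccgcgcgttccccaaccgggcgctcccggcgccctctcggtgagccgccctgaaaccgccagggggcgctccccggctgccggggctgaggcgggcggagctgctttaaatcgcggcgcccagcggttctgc
CLDN7: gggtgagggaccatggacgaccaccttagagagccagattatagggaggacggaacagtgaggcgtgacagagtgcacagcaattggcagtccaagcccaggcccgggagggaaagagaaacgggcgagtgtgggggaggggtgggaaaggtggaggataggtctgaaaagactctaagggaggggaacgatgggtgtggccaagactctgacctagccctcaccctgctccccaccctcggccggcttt
CD24: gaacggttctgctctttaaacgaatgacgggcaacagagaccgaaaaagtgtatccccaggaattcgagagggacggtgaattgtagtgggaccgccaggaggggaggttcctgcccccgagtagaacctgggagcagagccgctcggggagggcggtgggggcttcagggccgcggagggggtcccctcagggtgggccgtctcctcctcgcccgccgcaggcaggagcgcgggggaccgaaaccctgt
JUP: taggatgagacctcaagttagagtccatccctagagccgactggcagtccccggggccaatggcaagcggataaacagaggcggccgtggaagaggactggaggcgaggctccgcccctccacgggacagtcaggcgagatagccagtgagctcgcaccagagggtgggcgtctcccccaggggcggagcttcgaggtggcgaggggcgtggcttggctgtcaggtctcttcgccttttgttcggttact
DSP: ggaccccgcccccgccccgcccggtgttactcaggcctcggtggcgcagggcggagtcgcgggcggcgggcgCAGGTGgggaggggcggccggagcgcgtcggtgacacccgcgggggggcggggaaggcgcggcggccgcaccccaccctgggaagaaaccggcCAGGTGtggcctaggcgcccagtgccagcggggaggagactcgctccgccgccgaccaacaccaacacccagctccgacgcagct
No capitals stand in the first 4 windows, and the DSP window holds CAGGTG 178 and 85 bases before the start. The start used here is that of the first RefSeq entry for each symbol. It can differ from the GENCODE gene bounds given below. The windows of CLDN4, CLDN7 and OCLN lie wholly within those bounds, and those of CLDN1, DSC2, DSP and JUP partly. The distances and matches therefore depend on the start chosen.

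Of the 9 windows, 4 held the E-box in either orientation, against 17.5% of 35116 windows of the same length. Beside DSP these were OCLN, TJP1 and DSC2, shown with 10 bases on each side on the strand of the gene, at chr5:69492504-69492529 (plus strand, 33 bases before the start), chr15:29969122-29969147 (minus strand, 88 bases) and chr18:31102562-31102587 (minus strand, 156 bases).
OCLN: atccgagtttCAGGTGaattggtcac
TJP1: ggccggcgcgCAGGTGgcccggcctc
DSC2: aactttctgtCAGGTGggcctcaggc
Of the members with an E-box, DSP, TJP1 and DSC2 did not pass the test below, and OCLN had too few counts for it. Any bearing of the motif on the levels was not tested. None of the 9 windows held the half-site AGGTGTGA or its reverse complement TCACACCT, which occurred in 0.786% of all windows, and none held TATAAA or TTTATA, which occurred in 10.7%. An E-box and the half-site can share letters, since the end of CAGGTG is the start of AGGTGTGA. The GC content of the members' windows ran from 58.8% in CLDN4 to 78% in DSP, with a median of 58% over all windows.

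The authors deposited whole-number read counts per gene, with totals between 19319411 and 22985371 per library. Counts were scaled to TMM-normalized CPM (counts per 1000000 reads), and 15277 genes with enough counts entered the quasi-likelihood test of edgeR, in which a gene counted as called at a Benjamini-Hochberg (BH) adjusted p below 0.05, taken over all tested genes, and a fold change above 1.5 in either direction. Brachyury, listed as T, had 0 counts in all 6 libraries, so the level of the targeted gene gave no check of the labels. The paper describes brachyury as constitutively overexpressed in this line, but no transcript of it was counted in shNC either. A fall of its RNA in shBry could therefore not be seen in these counts, which hold no protein level. Of the MDA-MB-231 markers, VIM had 3200 ± 152 CPM in shBry and 3860 ± 142 in shNC (SD, n = 3), and all 6 markers of that list were detected, with KRT8 and CAV1 called lower. KRT8 had 239 ± 24.3 CPM in shBry and 891 ± 46.7 in shNC, with a log2 fold change of -1.90. CAV1 had 87.6 ± 4.68 CPM in shBry and 189 ± 16.8 in shNC, with a log2 fold change of -1.11. Luminal breast markers summed to between 24.4 and 26.3 CPM in shBry and between 31.5 and 32.1 in shNC, and the defining genes CDH1, ESR1 and PGR stayed at or below 2, 1 and 1 counts per library. Of that list 4 genes were tested and 2 were called, both lower, KRT19 with a log2 fold change of -1.79 and ERBB3 with -1.33. KRT19 had 7, 9 and 11 counts in shBry and 32, 37 and 23 in shNC. It entered the test through its shNC libraries, as only 1 shBry library had enough counts. GATA3 had 13 ± 0.935 CPM in shBry and 10.4 ± 1.19 in shNC. Leukocyte markers summed to at most 0.108 CPM in shBry and 0.229 in shNC, with PTPRC and TYROBP at 0. Fibroblast markers summed to between 31.7 and 35.4 CPM in shBry and between 29.9 and 35.1 in shNC, nearly all of it COL1A1 and PDGFRB, with DCN at 0. Endothelial markers summed to between 24.3 and 26.2 CPM in shBry and between 19.2 and 21.9 in shNC, most of it TIE1, PECAM1 had at most 11 counts, and KDR was called lower with a log2 fold change of -1.02, but not without shNC replicate 1 (-0.84). Of the mesothelial markers that pericardial RNA would hold, ITLN1 was at 0, WT1 had at most 7 counts and UPK3B at most 5, while MSLN reached 45.9 ± 2.89 CPM in shBry and 32.1 ± 3.84 in shNC. LRRN4 was called higher, with 7.08 ± 0.729 CPM against 4.17 ± 0.969 and a log2 fold change of 0.76, but not without shNC replicate 3 (0.56). CALB2 was called lower, with 222 counts in shNC replicate 3 against 30 and 29 in the other shNC libraries and 21, 14 and 16 in shBry, and its log2 fold change of -2.52 was -0.81 and not called without shNC replicate 3. The list summed to between 51.4 and 57.7 CPM in shBry and between 40.2 and 42.1 in shNC. Of the lung epithelial markers, SFTPB, SFTPC and SCGB1A1 were at 0, NKX2-1 was called lower, with 17.4 ± 2.17 CPM against 35.9 ± 3.22 and a log2 fold change of -1.05, and the list summed to between 18.6 and 22.8 CPM in shBry and between 36 and 43.1 in shNC. The part of these markers in the results was not tested. In bulk RNA, a change in how many cells express a gene and a change in RNA per cell cannot be told apart.

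The junction and surface genes did not move together. CLDN1 rose from near the detection limit, EPCAM and CD24 rose between 2- and 3-fold, CLDN7 rose 1.72-fold, and JUP fell. Of the 10 genes, 9 passed the expression filter, and 5 of these 9 were called, 4 higher and 1 lower in shBry. Over all tested genes 32.4% were called, 17.1% higher and 15.2% lower. The shBry and shNC values did not overlap in 6 of the 9, 5 higher and 1 lower, against 59.5% of all tested genes. Their median log2 fold change was 0.58, against 0.033 over all tested genes. DSP, DSC2, TJP1 and CLDN4 were not called, and OCLN had too few counts for the test. CLDN1 passed the expression filter through its shBry libraries alone, so these counts over the tested members are a description.

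**Figure D1:**
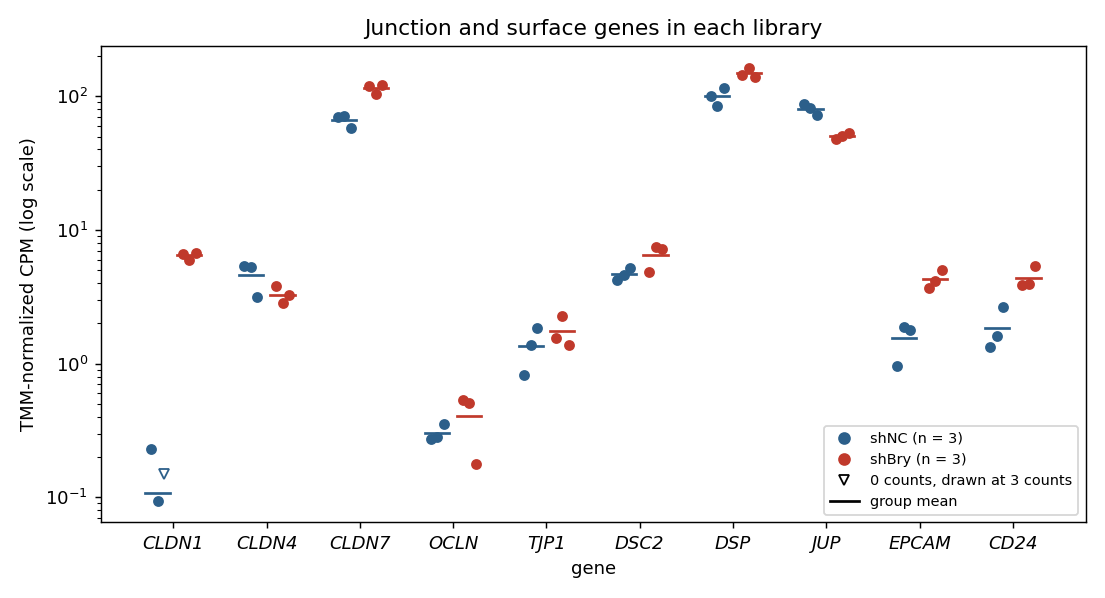
TMM-normalized CPM of the 10 genes (log scale) in each of 3 shNC (blue) and 3 shBry (red) libraries, with group means as lines and an open triangle at 3 counts for the library with 0 counts. CLDN1, CLDN7, DSP, EPCAM and CD24 had all shBry points above all shNC points, JUP had all below, and the points of CLDN4, OCLN, TJP1 and DSC2 overlapped.

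Levels of different genes were compared as CPM per kilobase of annotated exon. This length joins the exons of all annotated transcripts of a gene, and which of them the cells used was not tested. For CLDN4 it joins 5 transcripts to 4.702 kilobases, so the place of CLDN4 in the order is uncertain. The places of OCLN and TJP1 are uncertain too, since some of their neighbours also had few counts, as given below. In shNC the order was CLDN7 with 26.7 ± 2.98 CPM per kilobase (SD, n = 3), JUP with 16.2 ± 1.54 and DSP with 9.9 ± 1.49, and then a drop to CLDN4 with 0.982 ± 0.27. Below it stood EPCAM with 0.616 ± 0.204, CD24 with 0.602 ± 0.226, DSC2 with 0.375 ± 0.0399, TJP1 with 0.12 ± 0.0457, OCLN with 0.0448 ± 0.00612 and CLDN1 with 0.0295 ± 0.0314. The ranges of CLDN4, EPCAM and CD24 ran into each other, as did those of OCLN and CLDN1, and the other neighbours were separated. In shBry, CLDN7 led with 46.1 ± 3.83 CPM per kilobase, DSP with 14.8 ± 1.34 stood above JUP with 10.2 ± 0.556, and after a drop CLDN1 with 1.76 ± 0.115 came next. EPCAM with 1.7 ± 0.27 and CD24 with 1.42 ± 0.27 followed without separation from their upper neighbour, and CLDN4 had 0.701 ± 0.107. DSC2 with 0.521 ± 0.116, TJP1 with 0.154 ± 0.0422 and OCLN with 0.0602 ± 0.0295 closed the order. CLDN7, DSP and JUP together held between 91.5% and 95.1% of all counts of the 10 genes in every library.

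CLDN1, on the minus strand of chromosome 3 (190305701 to 190322475, GRCh38), encodes claudin 1, a barrier-forming claudin. It had 123, 142 and 153 counts in shBry replicates 1, 2 and 3 and 5, 2 and 0 counts in shNC replicates 1, 2 and 3. All 3 shBry libraries stood far above all 3 shNC libraries. In CPM these were 6.62, 5.99 and 6.78 against 0.229, 0.0945 and 0, where a count of 0 allows up to 3 counts, or 0.15 CPM in that library. The log2 fold change was 5.79 (SE 0.40; edgeR, BH-adjusted p = 4.12e-08), and 22 of the 15277 tested genes had a higher one. CLDN1 passed the expression filter through its shBry libraries alone, so this p and this rank are a description. The ratio of the summed counts, 418 against 7, was 58 after scaling, with a 95% exact Poisson interval from 27.9 to 145 that covers counting error only. Without shNC replicate 1, which held 5 of the 7 counts, the log2 fold change was 6.88, and with each other library left out it lay between 5.23 and 5.83. No stretch of 50 bases in CLDN1 transcripts occurs in transcripts of other genes, and no other gene overlaps its exons.

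CLDN7, on chromosome 17 from 7259903 to 7263983 on the minus strand, encodes claudin 7 and had the highest level of the 10 genes per kilobase. It had 120, 104 and 121 CPM in shBry and 70.1, 71.7 and 58.1 in shNC. The groups were separated, with the lowest shBry library well above the highest shNC library. The log2 fold change was 0.78 (SE 0.10; edgeR, BH-adjusted p = 1.47e-05). Other genes, ELP5 on the opposite strand and AC003688.1 on the same strand, overlap 12.3% of its exon bases. Of the stretches of 50 bases in CLDN7 transcripts, 8.25% occur in transcripts of AC003688.1. The counting is not stated to have used strand. CLDN4, on chromosome 7 from 73799542 to 73832693, encodes claudin 4, which MDA-MB-231 cells are known to express weakly. It had 3.82, 2.82 and 3.24 CPM in shBry and 5.41, 5.29 and 3.16 in shNC, where replicate 3 lay within the shBry range. The log2 fold change was -0.50 (SE 0.23; edgeR, BH-adjusted p = 0.0866), and without shNC replicate 3 it was -0.73 (edgeR, BH-adjusted p = 0.0124, with a range up to 0.267 over the 6 fits that left out a library). Within each library CLDN7 had 31.4, 36.8 and 37.2 counts per CLDN4 count in shBry and 13, 13.5 and 18.4 in shNC. This ratio does not depend on the scaling between libraries, and its groups did not overlap.

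OCLN and TJP1, the genes of occludin and zonula occludens 1, had low counts. OCLN had 10, 12 and 4 counts in shBry and 6, 6 and 7 in shNC, so the groups overlapped and the expression filter removed it. Fitted without the filter, its log2 fold change was 0.39 (SE 0.63; edgeR, BH-adjusted p = 0.662). TJP1 had 29, 54 and 31 counts in shBry and 18, 29 and 37 in shNC, again with overlap. Its log2 fold change was 0.38 (SE 0.33; edgeR, BH-adjusted p = 0.358), and it lay between 0.11 and 0.65 with each library left out. The levels of both genes are uncertain. OCLN, on chromosome 5 from 69492292 to 69558104, has a pseudogene copy, OCLNP1, and 8.6% of the stretches of 50 bases in its transcripts occur in transcripts of other genes. Of the genes beside it that all cells use, TAF9 had 59 counts and AK6 31 summed over all 6 libraries, whereas CDK7 had 454 and RAD17 947, and its neighbour MARVELD2, the gene of tricellulin, was at 0. TJP1, on chromosome 15 from 29699367 to 29968865, shares no such stretch, and its neighbour NSMCE3, a subunit of the SMC5-SMC6 complex, had 31 counts in all, and APBA2, an adaptor gene, had 247. Why some of these neighbours were low was not tested.

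**Figure D2:**
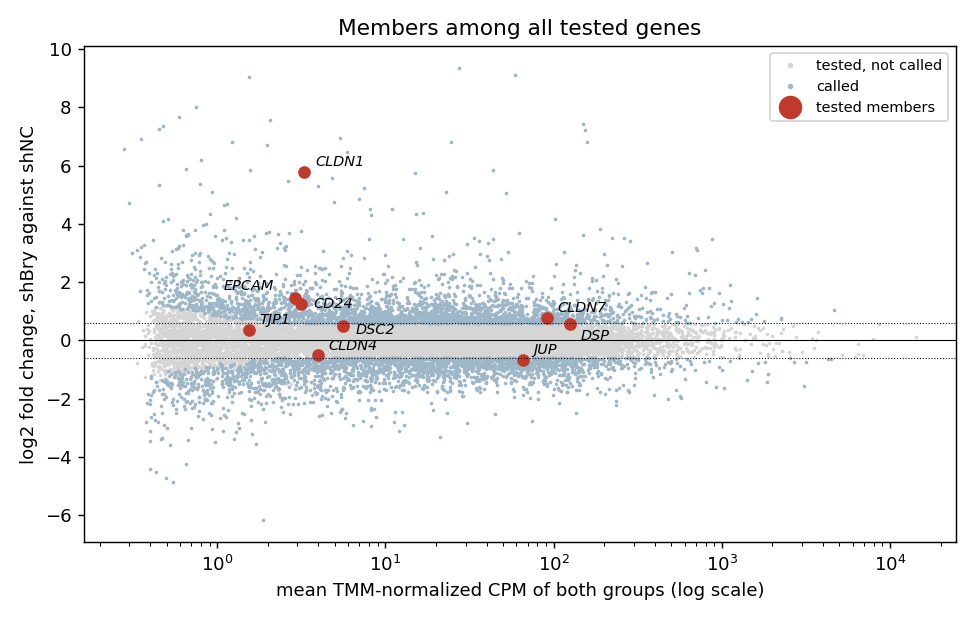
log2 fold change of shBry against shNC for each of 15277 tested genes against the mean TMM-normalized CPM of both groups (log scale), with called genes in blue-grey, other genes in grey and the 9 tested junction and surface genes in red. Dotted lines mark the fold change limit of 1.5, with CLDN1 at 5.79 far above it and DSP just inside it.

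The desmosome genes differed in sign. JUP, on chromosome 17 from 41754604 to 41786931 on the minus strand, encodes plakoglobin, which serves both desmosomes and adherens junctions. It had 48.1, 50.1 and 53.5 CPM in shBry and 87.1, 81.4 and 72.1 in shNC. All shBry libraries lay below all shNC libraries, with a log2 fold change of -0.67 (SE 0.09; edgeR, BH-adjusted p = 4.08e-05), and it stayed called with each library left out. DSP, on chromosome 6 from 7541575 to 7586717, encodes desmoplakin and differed in the opposite direction. It had 145, 164 and 139 CPM in shBry and 101, 84.5 and 115 in shNC, without overlap. Its log2 fold change of 0.58 (SE 0.11; edgeR, BH-adjusted p = 0.000446) was 1.49-fold, just under the fold change limit, so it was not called. With each library left out its log2 fold change lay between 0.45 and 0.66, on both sides of the limit.

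The count of DSP per count of JUP was 3.01, 3.28 and 2.59 in the shBry libraries. In the shNC libraries it was 1.15, 1.04 and 1.59, so the means were 2.96 ± 0.35 in shBry and 1.26 ± 0.291 in shNC (SD, n = 3) and the groups did not overlap. DSC2, on chromosome 18 from 31058840 to 31102522, encodes desmocollin 2. It had 4.85, 7.5 and 7.18 CPM in shBry and 4.22, 4.63 and 5.21 in shNC, and shBry replicate 1 lay within the shNC range. The log2 fold change was 0.48 (SE 0.20; edgeR, BH-adjusted p = 0.0517), and without shBry replicate 1 it was 0.65 (edgeR, BH-adjusted p = 0.00787, with a range up to 0.167 over the 6 such fits).

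Both surface glycoprotein genes rose from low levels. EPCAM, on chromosome 2 from 47345158 to 47387601, had 68, 99 and 113 counts in shBry and 21, 40 and 36 in shNC. In CPM these were 3.66, 4.17 and 5.01 against 0.962, 1.89 and 1.8, and the groups did not overlap. The log2 fold change was 1.47, or 2.77-fold (SE 0.27; edgeR, BH-adjusted p = 0.000337). CD24, on chromosome 6 from 106969831 to 106975627 on the minus strand, had 72, 94 and 121 counts in shBry and 29, 34 and 53 in shNC. In CPM these were 3.88, 3.96 and 5.36 against 1.33, 1.61 and 2.65, again without overlap. The log2 fold change was 1.25, or 2.37-fold (SE 0.27; edgeR, BH-adjusted p = 0.00126). Of the stretches of 50 bases in CD24 transcripts, 4.95% occur in transcripts of other genes, above all its pseudogene CD24P4, which had 6 counts in shBry and 0 in shNC. Both genes were called in each of the 6 fits that left out a library.

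**Figure D3:**
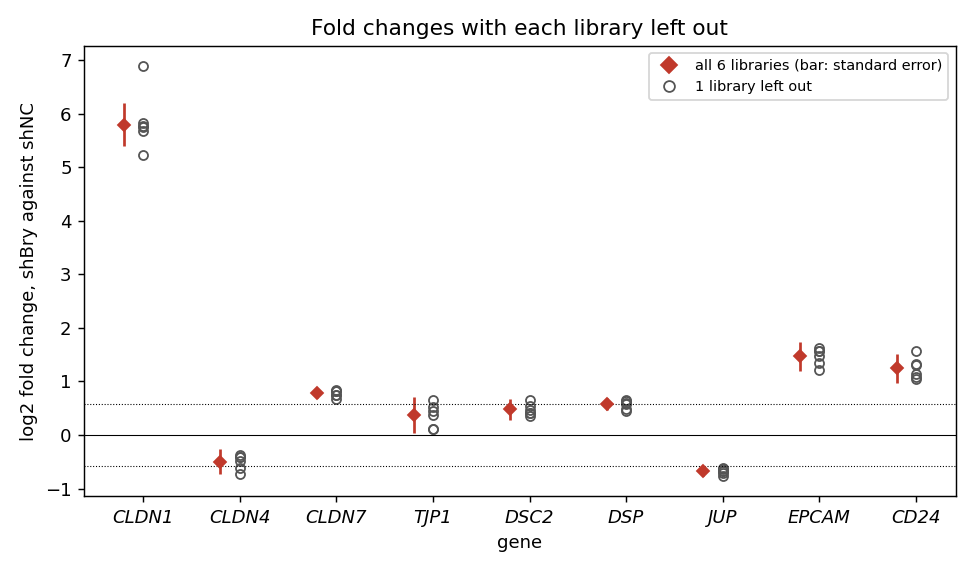
log2 fold change of shBry against shNC for the 9 tested genes, with all 6 libraries (red diamonds, bars are standard errors) and with each library left out in turn (open circles). CLDN1, CLDN7, EPCAM, CD24 and JUP stayed outside the dotted lines at the 1.5-fold limit in every fit, and DSP crossed its line.

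The remaining genes of these structures were examined with lists written from general knowledge, which hold the 10 genes too, and their counts of calls stand against the 32.4% of all tested genes that were called, 17.1% higher and 15.2% lower. Of 39 tight junction genes, 19 were tested, 3 were called higher and 5 lower, and the median log2 fold change was -0.08. CLDN1 and CGNL1 each passed the expression filter through a single group, so these counts are a description. Beside CLDN1 and CLDN7, CLDN12 was higher, with 59.6 ± 17.9 CPM against 31 ± 9.57 as mean and SD of 3 libraries and a log2 fold change of 0.95 (SE 0.21; edgeR, BH-adjusted p = 0.00178). Of its exon bases, 16.3% are overlapped by other genes. The 4 of these with the largest falls encode proteins of the cytoplasmic plaque. CGNL1, which encodes the cingulin-like protein paracingulin, fell from 1.51 ± 0.238 CPM in shNC to 0.334 ± 0.0578 CPM in shBry, with a log2 fold change of -2.14, and passed the expression filter through its shNC libraries alone. TJP3, the gene of zonula occludens 3, fell from 3.03 ± 0.477 CPM in shNC to 1.21 ± 0.0928 CPM in shBry, with a log2 fold change of -1.32. MAGI1, a membrane-associated guanylate kinase gene, had a log2 fold change of -0.97. AMOTL1, a gene of the angiomotin family, fell from 63.3 ± 2.12 CPM in shNC to 37.1 ± 4.16 CPM in shBry, with a log2 fold change of -0.77. Their BH-adjusted p in edgeR lay between 1.64e-05 and 0.000467. CLDN3 was the other gene called lower (edgeR, BH-adjusted p = 0.0487), and it lost its call with DESeq2, limma-voom and other fits. Of the 39 genes, 11 had 0 counts in every library, among them CLDN5, CLDN8, CLDN18, MARVELD2 and MARVELD3.

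Of 15 desmosome and cornified plaque genes, 8 were tested, 2 were called higher and 2 lower, and the median log2 fold change was 0.26. PKP3, a plakophilin gene, rose from 44.9 ± 5.8 CPM in shNC to 84 ± 9.58 CPM in shBry, with a log2 fold change of 0.90 (SE 0.11; edgeR, BH-adjusted p = 1.24e-05). DSG2, the desmoglein gene of simple epithelia, rose from 46.9 ± 5.71 CPM in shNC to 74.2 ± 13.6 CPM in shBry, with a log2 fold change of 0.66 that was 0.52 and under the fold change limit without shBry replicate 2. EVPL, the gene of envoplakin, a plakin related to desmoplakin, was lower beside JUP, with 63.8 ± 3.69 CPM against 106 ± 8.82 and a log2 fold change of -0.73. DSG1, DSG3, DSG4 and DSC1, which are typical of stratified epithelia, had 0 counts in every library.

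Of 11 adherens junction genes, 9 were tested, 1 was called higher and 2 lower, and the median log2 fold change was 0.03. CDH3, which encodes P-cadherin, rose from 3.38 ± 0.444 CPM in shNC to 8.5 ± 0.446 CPM in shBry, with a log2 fold change of 1.33 (SE 0.17; edgeR, BH-adjusted p = 1.67e-05). VCL, the gene of the actin linker vinculin, had a log2 fold change of -0.90, and NECTIN1, an immunoglobulin-like adhesion gene, had -0.84. A gene on the opposite strand overlaps 11.1% of the exon bases of CDH3, and likewise 11.1% of those of VCL. The E-cadherin gene CDH1 stayed at or below 2 counts per library and was not tested. The catenin genes CTNNA1 (log2 fold change 0.03) and CTNNB1 (0.11) were not called.

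Of 15 epithelial surface genes, 10 were tested, 4 were called higher and 1 lower, and the median log2 fold change was 0.08. Beside EPCAM and CD24, ST14, which encodes the membrane protease matriptase, rose from 1.5 ± 0.311 CPM in shNC to 6.15 ± 0.937 CPM in shBry, with a log2 fold change of 2.02 (SE 0.22; edgeR, BH-adjusted p = 4.1e-06). CEACAM1, an immunoglobulin-like adhesion gene, rose from 0.545 ± 0.199 CPM in shNC to 1.93 ± 0.413 CPM in shBry, with a log2 fold change of 1.83. ERBB3, a receptor tyrosine kinase gene of the EGF receptor family, fell from 14.1 ± 1.07 CPM in shNC to 5.56 ± 0.922 CPM in shBry, with a log2 fold change of -1.33. Of 13 polarity complex genes, all 13 were tested and 1 was called, PRKCI, an atypical protein kinase C gene, with a log2 fold change of 0.61. It lost its call without shBry replicate 2 (0.41), without shNC replicate 1 (0.47) and without shNC replicate 2 (0.57).

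**Figure D4:**
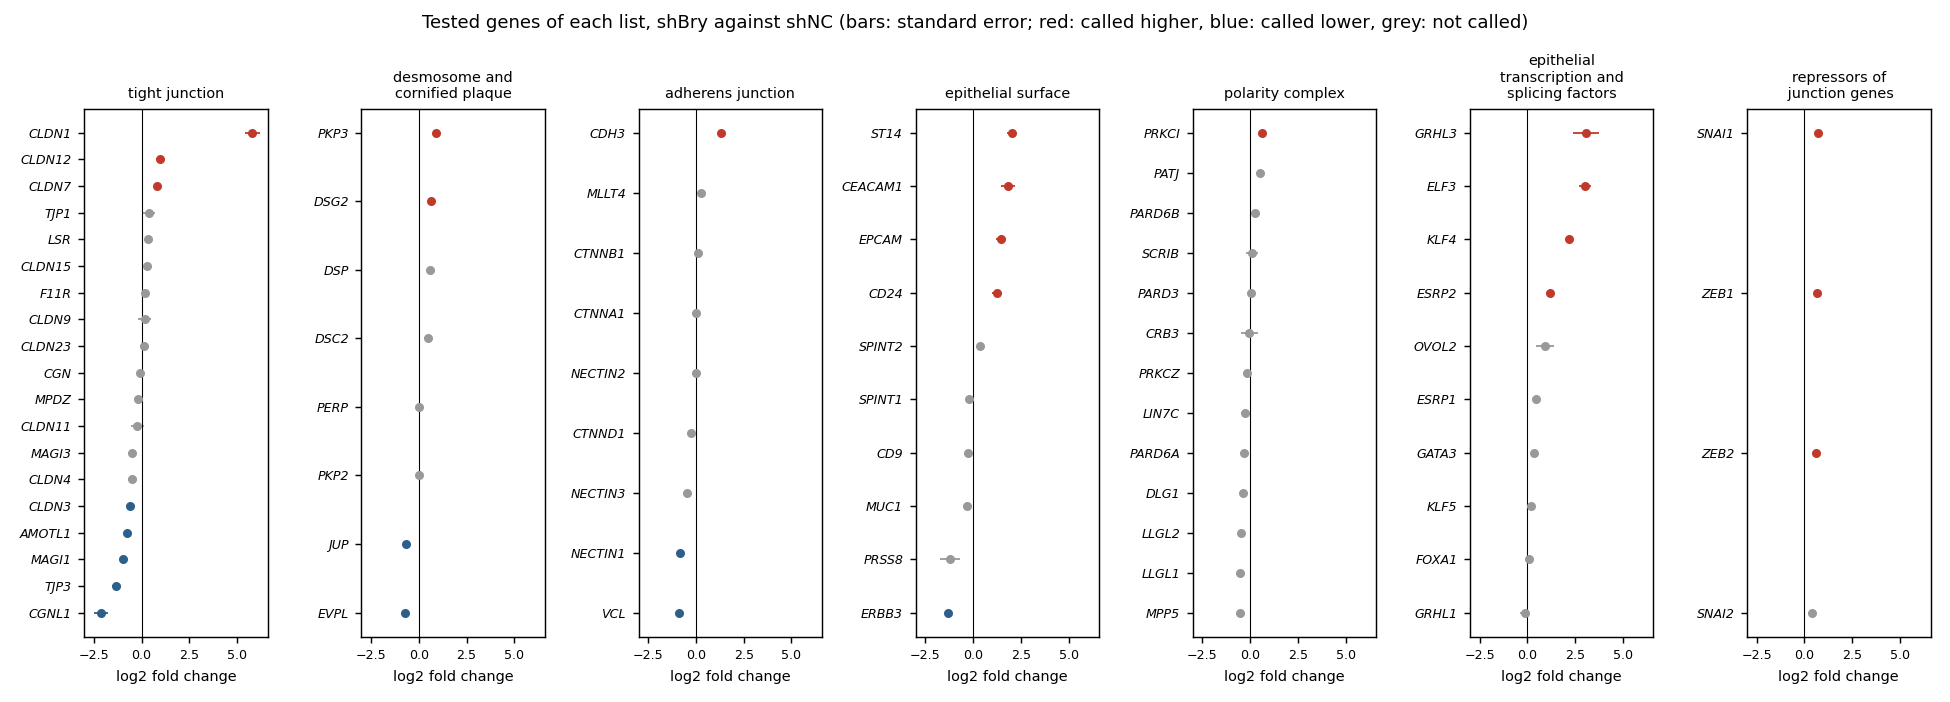
log2 fold change with standard error for the tested genes of 7 lists, with genes called higher in shBry in red, called lower in blue and not called in grey. Tight junction genes lie on both sides of 0, and the called epithelial transcription and splicing factors and the called repressors lie on the higher side.

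Among 14 transcription and splicing factors of epithelial cells, 10 were tested, 4 were called higher and 0 lower, against 17.1% and 15.2% of all tested genes, and the median log2 fold change was 0.70. KLF4, a zinc finger factor of epithelial differentiation, rose from 35.8 ± 1.82 CPM in shNC to 164 ± 10.7 CPM in shBry, with a log2 fold change of 2.20 (SE 0.09; edgeR, BH-adjusted p = 1.57e-10). ELF3, an ETS factor, rose from 0.396 ± 0.113 CPM in shNC to 3.3 ± 0.56 CPM in shBry, with a log2 fold change of 3.04 (SE 0.31; edgeR, BH-adjusted p = 1.93e-06). GRHL3, a grainyhead-like factor, had 10, 40 and 15 counts in shBry and 0, 4 and 3 in shNC, with a log2 fold change of 3.07 (SE 0.70; edgeR, BH-adjusted p = 0.00195) that was 2.37 without shBry replicate 2 and 2.49 without shNC replicate 1. GRHL3 passed the expression filter through its shBry libraries alone, and ELF3 had 1 shNC library over the limit of that filter, so the count of 4 is a description. ESRP2, an epithelial splicing regulator, rose from 2.98 ± 0.409 CPM in shNC to 6.8 ± 1.09 CPM in shBry, with a log2 fold change of 1.18. GRHL2 had 0 counts in every library, and TP63 at most 1. Of 6 genes of repressors that act on junction genes, 4 were tested and 3 were called, each higher in shBry, with log2 fold changes of 0.73 for SNAI1, 0.67 for ZEB1 and 0.61 for ZEB2. The median over the 4 tested was 0.64. Without shBry replicate 2 or without shNC replicate 2, ZEB1 and ZEB2 fell under the limits of a call and SNAI1 alone was called.

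Many genes correlated over the libraries with CLDN1 and JUP, the called members with the highest and the lowest log2 fold change. Values were log2 of CPM plus 0.5, which flattens differences among values near 0. Over the 6 libraries, 1722 tested genes had a Pearson correlation above 0.95 with CLDN1. The 3 most alike were PPP1R26, KDSR, an enzyme gene of sphingolipid synthesis, and the pseudogene PDCL3P4, each with r = 0.9998. With JUP, 1148 genes passed 0.95, and the integrin gene ITGA2B (r = 0.9985), the carbonic anhydrase gene CA9 (r = 0.9963) and the transcription factor gene MYB (r = 0.9954) were the most alike. A high r does not mean a like size of change, as PPP1R26 had a log2 fold change of 0.56 and CLDN1 5.79. MYB had 0.548 CPM in shBry and 1.58 in shNC, and ITGA2B 1.6 and 3.28, so these were low values. With 3 libraries per group, a difference between the groups can by itself give a high r. All points share their libraries, and these values are a description.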

How the data were processed

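RNA of MDA-MB-231 shBry and shNC cells was sequenced in 3 libraries each, grouped by the hairpin named in the labels. The authors deposited raw counts per gene symbol without normalization. Their processing notes list HISAT2 2.0.4, HTSeq and GRCh38. The annotation and the strand setting are not given in the sources used here. Depth ran from 19319411 to 22985371 counts per library.

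The counts were filtered by edgeR's filterByExpr at a minimum count of 10, scaled with TMM and tested with edgeR 4.0.16 in R 4.3.3 over all 15277 genes. Standard errors are the log2 fold change divided by the square root of F. Exon lengths, overlaps and shared 50-base stretches came from GENCODE 29 on GRCh38, matched by symbol, and promoters from RefSeq on GRCh38.p14. AFDN and PALS1 are listed under the older symbols MLLT4 and MPP5. The test was tried on simulated data first.

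The 10 genes and the lists were chosen with earlier results of these data known. Some genes of the lists are not reported here and were left out of their counts. Named were all 10 genes, from each list up to 4 genes called higher and up to 4 called lower with the largest change, and the 3 genes most correlated with the called members of highest and lowest fold change. Genes named beyond this (marker genes, genes at 0, CDH1, CTNNA1, CTNNB1, CLDN3 and neighbours) were chosen after their values were seen. The alternatives were no TMM, DESeq2 1.42.0, limma-voom (limma 3.58.1), other filters, other fold change limits, a replicate block and each library left out.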

Additional observations from a re-analysis of the deposited data

How the results depend on the processing

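With a fold change limit of 2, 2297 of all tested genes were called, 3 of the 10 junction and surface genes, 3 tight junction, 0 desmosome, 1 adherens junction and 0 polarity genes and 0 repressors. Without a limit, at an adjusted p below 0.05, 8139 of all tested genes were called, 6 adherens junction and 5 polarity genes. With at least 10 counts in every library, 2 epithelial transcription and splicing factors were called, because 7 were then tested, and CLDN1, GRHL3, ELF3, CGNL1, CEACAM1 and MYB had no value. With each library left out, the counts of called genes lay between 4587 and 5025 for all genes, between 5 and 7 for the 10 genes, between 7 and 9 for tight junction, between 3 and 6 for desmosome, between 3 and 4 for adherens junction, between 5 and 6 for surface and between 0 and 2 for polarity genes, between 4 and 5 for the epithelial factors and between 1 and 3 for the repressors. Of the 5 junction and surface genes called, all 5 were called in the same direction in those 6 fits. Over all tested genes this held for 3719 of the 4945 called. CLDN1, 1 of the 5, passed the expression filter through its shBry libraries alone, so its place in this count is a description. No alternative turned the direction of the 9 tested junction and surface genes, the called genes of the 7 junction, surface, polarity and regulator lists or the 6 correlated genes. Among the other called genes of the lists, CLDN3, DSG2, PRKCI, ZEB1 and ZEB2 lost the call in at least 1 fit. DSP was over the limit with limma-voom and with the replicate block (both 0.59) and without shBry replicate 1 or 3 or shNC replicate 3. The replicate numbers gave no clear sign of pairing, which 3 libraries per group cannot exclude. Deviations from the group means of same-numbered libraries correlated at 0.25, -0.13 and -0.05, and not every library correlated best with its own number. The replicate block gave 4914 called genes and 6 of the 10 genes, with DSP added. At this depth the expression filter asked for about 10 counts in 3 libraries, which OCLN did not reach.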
